A study of Mus musculus with 9 samples.

Results

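Osteoclasts are the bone-resorbing cells that form when precursors of the macrophage lineage fuse, and RAW264.7, a mouse macrophage line established from ascites, is widely used as such a precursor. The genes described here are 8 genes of that lineage, chosen by name out of the 54532 genes in the deposited expression table. They are Spp1 (osteopontin), Acp5 (tartrate-resistant acid phosphatase), Ctsk (cathepsin K), Tnfrsf11a (the receptor RANK), Nfatc1, Dcstamp, Ocstamp and Mitf, and each was found once in the table. RNA-seq had been performed on 9 libraries in 3 groups of 3. Control cells were untreated, LPS cells were treated with 1 μg/ml of lipopolysaccharide (LPS) for 6 h, and LPS + G-CDs cells received the same LPS together with 400 μg/ml of carbon dots made from Glycyrrhiza (G-CDs). All libraries came from the wild-type RAW264.7 line, and none of the 9 received G-CDs without LPS. The treatment label of the last group names LPS alone, and its titles name G-CDs.

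RANK ligand (Tnfsf11) binds RANK on the precursor and, together with macrophage colony-stimulating factor (Csf1) acting on its receptor Csf1r, drives osteoclast formation. Signals from RANK lead to NFATc1, the master transcription factor of the lineage, which works with MITF to switch on the genes for resorption (Acp5, Ctsk) and for cell fusion (Dcstamp, Ocstamp). Osteopontin is a secreted, integrin-binding phosphoprotein of the bone matrix that macrophages also make during inflammation. Neither the labels nor the methods of the study mention RANK ligand.

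The 250 bases upstream of the first of 2 RefSeq starts of Spp1 and of the start of Tnfrsf11a (build GRCm38.p6, both on the plus strand) are shown. Among the 5 genes that passed the filter described below, these had the largest rise and the largest fall after LPS by log2 fold change. Nfatc1 fell almost as much as Tnfrsf11a (-1.23 against -1.26), and more in some alternative analyses. Capitals mark matches, on either strand, to the NF-κB core (GGG, any 5 bases, CC) or the TATA box TATAAA.
Spp1, chr5:104434861-104435110: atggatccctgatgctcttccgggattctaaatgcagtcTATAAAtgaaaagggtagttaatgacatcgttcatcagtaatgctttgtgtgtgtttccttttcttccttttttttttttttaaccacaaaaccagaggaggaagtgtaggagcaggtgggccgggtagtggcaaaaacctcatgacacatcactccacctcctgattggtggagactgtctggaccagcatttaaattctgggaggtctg
Tnfrsf11a, chr1:105780473-105780722: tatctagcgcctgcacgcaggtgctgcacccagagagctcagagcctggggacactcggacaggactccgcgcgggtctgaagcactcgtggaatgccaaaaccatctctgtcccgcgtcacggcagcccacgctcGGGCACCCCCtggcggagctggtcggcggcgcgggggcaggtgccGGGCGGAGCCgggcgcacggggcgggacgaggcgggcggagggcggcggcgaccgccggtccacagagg
The Spp1 window held 1 TATAAA, at position -211 from the start, and no match to the NF-κB core, whereas the Tnfrsf11a window held 2 matches to that core, at positions -114 and -69. The window of the second Spp1 start held neither TATAAA nor the core. The core occurs in 45.8% and TATAAA in 12.4% of the 32851 upstream windows of this length. Neither printed window held the AP-1 motif TGANTCA (6.75% of windows) or the antioxidant response element core TGACNNNGC (10.2% of windows), both read on either strand. These are matches of letters, and binding was not measured.

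The values are FPKM, in which reads are corrected for the length of the gene and the size of the library, so levels can be compared between genes. Reads on genes numbered 14752400 to 17312255 per library. A gene was tested when it reached 1 FPKM in at least 3 of the 9 libraries, which left 11585 genes. Of the 8 genes, Spp1, Tnfrsf11a, Nfatc1, Dcstamp and Mitf passed, while Acp5, Ctsk and Ocstamp did not. Fold changes are differences of log2(FPKM + 1) fitted with limma over all 9 libraries, and "called" means a Benjamini-Hochberg adjusted p under 0.05 over all genes tested. The labels do not say whether the libraries of a group came from separate cultures, so p-values measure the spread between libraries, which may be technical. The LPS libraries lay closer together than those of the other groups. Among the 20% longest genes the median deviation from the group mean was 0.26 in LPS + G-CDs replicate 1 and -0.26 in replicate 3 (log2 scale), against -0.03 to 0.02 in the LPS libraries and 0.11, 0.13 and -0.22 in control replicates 1 to 3. All 8 macrophage markers examined (Adgre1, Cd68, Ptprc, Csf1r, Itgam, Lyz2, Cd14, Fcgr1) were tested, and their summed level ranged from 2558 to 3503 FPKM in control, 3740 to 3942 in LPS and 3126 to 5138 in LPS + G-CDs libraries. The sum was mostly Cd14, with means of 436, 2292 and 2611 FPKM in this order, and Lyz2, with 1762, 947 and 811 FPKM. Of 6 osteoblast markers, Runx2, Sp7, Bglap, Col1a1 and Ibsp stayed under 1 FPKM in every library, and Alpl was present at 7.20 to 13.2 FPKM. The 4 fibroblast and 4 lymphocyte markers all stayed under 1 FPKM.

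Spp1 moved apart from Tnfrsf11a and Nfatc1 after LPS. Spp1 rose 8.26-fold in mean FPKM, the RANK gene Tnfrsf11a and Nfatc1 fell to 0.374 and 0.391 times their control means, and Dcstamp and Mitf stayed within the spread between libraries. The resorption genes Acp5 and Ctsk and the fusion gene Ocstamp were near the limit of detection in all 3 groups. Adding G-CDs to LPS left the 5 tested genes without a call, where 0.492% of all genes were called, with Dcstamp the nearest to the threshold. In RNA from whole cultures, fewer cells expressing a gene and less of its RNA per cell cannot be told apart.

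**Figure D1:**
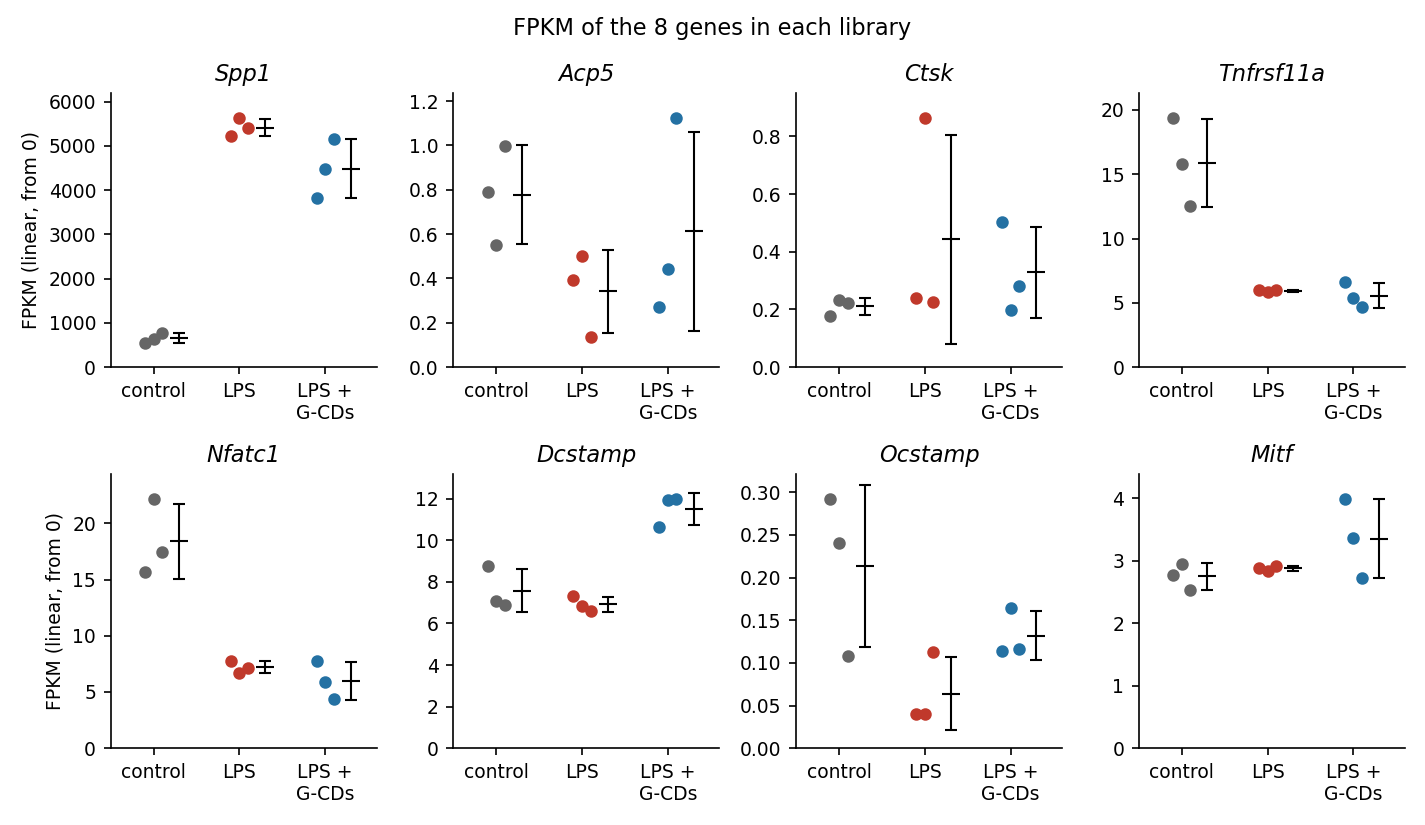
FPKM of the 8 genes in each of the 9 libraries on linear axes that start at 0. Points are libraries in the order of replicates 1 to 3, and the black dash with bars is the mean ± SD (n = 3). Spp1 is high in all LPS-containing libraries, Tnfrsf11a and Nfatc1 are high in control libraries, and Dcstamp is highest in the 3 LPS + G-CDs libraries.

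Spp1 (ENSMUSG00000029304, chromosome 5, 104435118 to 104441050, plus strand, GRCm38) had 545, 646 and 774 FPKM in control replicates 1 to 3. In the LPS libraries it had 5217, 5622 and 5406 FPKM, and in the LPS + G-CDs libraries 3821, 4482 and 5163 FPKM. Every library with LPS was above every control library, and every LPS + G-CDs library was below every LPS library. Osteopontin mRNA was abundant even before stimulation. It ranked between place 31 and 38 of all genes in control libraries, 3 to 4 in LPS libraries and 6 to 7 in LPS + G-CDs libraries, and it took 0.0995% to 0.143%, 0.799% to 0.867% and 0.617% to 0.749% of the reads on genes.

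Between LPS and control, the log2 fold change of Spp1 was 3.06 (standard error 0.22, 95% confidence interval 2.56 to 3.56, limma adjusted p = 1.2e-05), and between LPS + G-CDs and control it was 2.78 (standard error 0.22, interval 2.28 to 3.28, limma adjusted p = 2.6e-05). By the first of these changes Spp1 stood at place 124 of the 11585 genes. The difference between LPS + G-CDs and LPS was -0.28 (standard error 0.22, interval -0.78 to 0.22, limma adjusted p = 0.46), which did not pass the threshold although the groups did not overlap. In that comparison the groups did not overlap for 27.9% of all tested genes. After removing each library's trend over gene length the same difference was -0.55 (limma adjusted p = 0.12), and it was -0.17 without LPS + G-CDs replicate 1. The unclassified gene model Gm42793 lies inside Spp1 on the same strand (104435121 to 104436372) and had at most 450 reads in any library, against 16855 to 129519 reads for Spp1, and how reads were divided between them is not given in the sources used here.

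The other members of the osteopontin gene family, which encode phosphoproteins of bone and tooth, were at or near 0. Ibsp, Dspp and Mepe had 0 reads in all 9 libraries and Dmp1 had 1 read. A floor of 3 reads per library corresponds to at most 0.105 FPKM for Ibsp, 0.049 for Dspp and 0.129 for Mepe. Floors of this kind cover counting error only.

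Of the 8 known osteopontin receptor genes on the list, 6 were tested between LPS and control, of which 3 rose and 1 fell, where 15.8% of all tested genes rose and 15.6% fell. Itga5 (integrin α5) rose from 17.4 ± 1.75 to 148 ± 8.53 FPKM (SD, n = 3), a difference of 3.02 in log2(FPKM + 1) (standard error 0.12, limma adjusted p = 3.0e-07). Cd44, the hyaluronan receptor that also binds osteopontin, rose from 16.8 ± 2.67 to 72.6 ± 1.42 FPKM, a difference of 2.06 on that scale. Itgav (integrin αv) rose with a log2 fold change of 0.80 (limma adjusted p = 0.043). Itgb5, which pairs with αv, fell from 16.0 ± 2.92 to 4.19 ± 0.349 FPKM, a difference of -1.70 on that scale. Itgb1 and Itga4 had log2 fold changes of 0.30 and -0.86 (limma adjusted p = 0.15 and 0.16). Itgb3, the β3 chain of the osteoclast vitronectin receptor, had at most 3 reads in a library and Itga9 at most 5. None of the 6 was called between LPS + G-CDs and LPS (limma adjusted p = 0.20 to 0.35), where 0.492% of all genes were called. With G-CDs Itga5 was at 110 ± 5.34, Cd44 at 50.8 ± 4.93 and Itga4 at 29.0 ± 18.2 FPKM, each below LPS, and Itgb5 at 6.53 ± 0.736 FPKM was above LPS in every library (SD, n = 3). These 4 of the 6 passed at an unadjusted p under 0.05 by limma, against 15.2% of all genes. Voom on the recovered reads called 0 of the 6, against 0.371% of all genes.

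The mRNA for RANK, the receptor through which osteoclast formation begins, fell with LPS. Tnfrsf11a (ENSMUSG00000026321, chromosome 1, 105780718 to 105847981, plus strand) had 19.3, 15.8 and 12.5 FPKM in the control libraries. It had 6.00, 5.86 and 6.00 FPKM in the LPS libraries, and 6.60, 5.40 and 4.70 FPKM in the LPS + G-CDs libraries. All LPS-containing libraries were below all control libraries, and the LPS + G-CDs libraries fell on both sides of the LPS libraries. The log2 fold change was -1.26 between LPS and control (standard error 0.17, interval -1.64 to -0.88, limma adjusted p = 0.00049) and -1.35 between LPS + G-CDs and control (limma adjusted p = 0.00039). Between LPS + G-CDs and LPS it was -0.09 (interval -0.47 to 0.28, limma adjusted p = 0.75), and it became 0.005 without LPS + G-CDs replicate 3.

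The partners of RANK outside the cell were not detected. Tnfsf11, the ligand, and Tnfrsf11b, the decoy receptor osteoprotegerin, had 0 reads in all 9 libraries, which at 3 reads per library allows up to 0.0972 and 0.0771 FPKM. Among the 4 tested ligands and receptors, 3 rose and 1 fell with LPS, against 15.8% and 15.6% of all genes. Csf1 reached the filter only through libraries with LPS, which fixed its direction. The receptor for macrophage colony-stimulating factor, Csf1r, fell from 451 ± 19.5 to 202 ± 9.63 FPKM (SD, n = 3), a difference of -1.16 in log2(FPKM + 1) (standard error 0.13, limma adjusted p = 0.00021). Its ligand gene Csf1 had 10 reads over the 3 control libraries and 430 over the 3 LPS libraries, or 0.0362 ± 0.0364 and 1.93 ± 0.292 FPKM. That is a difference of 1.49 in log2(FPKM + 1) and a ratio of mean FPKM of 53.2. Tnf, a cytokine that can act on osteoclast precursors beside RANK ligand, rose from 53.3 ± 17.2 to 2512 ± 55.4 FPKM, a difference of 5.59 in log2(FPKM + 1), and its receptor Tnfrsf1a rose by 0.60. All 4 were also called between LPS + G-CDs and control in the same directions, against 12.8% of all genes called higher and 12.4% lower. Here too the filter fixed the direction of Csf1. Between LPS + G-CDs and LPS their log2 fold changes lay between -0.18 and 0.11, with limma adjusted p-values of 0.51 to 0.89. None of the 4 passed at an unadjusted p under 0.05 by limma, against 15.2% of all genes, and voom called 0 of them as well, against 0.371%. Il34, Lgr4 and Calcr did not pass the filter.

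Nfatc1, downstream of RANK, showed a fall of similar size. This gene (ENSMUSG00000033016, chromosome 18, 80606205 to 80713071, minus strand) had 15.7, 22.1 and 17.5 FPKM in the control libraries. The LPS libraries had 7.78, 6.68 and 7.15 FPKM, and the LPS + G-CDs libraries 7.74, 5.87 and 4.36 FPKM. Control libraries stood above all others, and LPS + G-CDs replicate 1 lay inside the range of the LPS libraries while replicates 2 and 3 lay below it. Its log2 fold change was -1.23 between LPS and control (standard error 0.19, interval -1.67 to -0.80, limma adjusted p = 0.0013) and -1.49 between LPS + G-CDs and control (limma adjusted p = 0.00054). The difference between LPS + G-CDs and LPS was -0.26 (interval -0.69 to 0.18, limma adjusted p = 0.44), and -0.10 after removal of the length trend. It was -0.43 without LPS + G-CDs replicate 1 and -0.08 without LPS + G-CDs replicate 3.

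Mitf did not follow Nfatc1. Mitf (ENSMUSG00000035158, chromosome 6, 97807052 to 98021349, plus strand), the bHLH factor that partners NFATc1 on resorption genes, had 2.77, 2.96 and 2.53 FPKM in the control libraries. It had 2.88, 2.84 and 2.92 FPKM in the LPS libraries, and 3.99, 3.36 and 2.72 FPKM in the LPS + G-CDs libraries. The 3 groups overlapped, and the LPS + G-CDs libraries were the most widely spread, with replicates 1 and 2 above all 6 of the others and replicate 3 among them. No comparison was called for Mitf. Its log2 fold changes were 0.05 (interval -0.24 to 0.35) for LPS against control, 0.16 (interval -0.14 to 0.45) for LPS + G-CDs against LPS and 0.21 (interval -0.09 to 0.50) for LPS + G-CDs against control, with limma adjusted p-values of 0.80, 0.48 and 0.29. Without LPS + G-CDs replicate 1 the last 2 became 0.05 and 0.10, and without LPS + G-CDs replicate 3 they became 0.26 and 0.32. Rescaled to TPM, where each library has the same sum, the first and last of these turned to -0.18 and -0.15. The median gene of the 14074 tested on TPM was at -0.22 and -0.37 in the 2 comparisons, against 0.02 and 0.02 on FPKM, and relative to the TPM median Mitf was at 0.04 and 0.22. The table gives 1 value for all Mitf isoforms, which start from several promoters.

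Dcstamp, the transmembrane protein needed for osteoclast precursors to fuse, was the tested gene whose LPS + G-CDs libraries all stood above the 6 others. Dcstamp (ENSMUSG00000022303, chromosome 15, 39745930 to 39760938, plus strand) had 8.77, 7.10 and 6.89 FPKM in the control libraries. The LPS libraries had 7.33, 6.82 and 6.61 FPKM, and the LPS + G-CDs libraries had 10.6, 11.9 and 12.0 FPKM. Control and LPS libraries overlapped, and the lowest library with G-CDs was replicate 1. These values rest on 251 to 528 reads per library.

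Against LPS the mean FPKM of Dcstamp was 1.66 times as high with G-CDs. The difference in log2(FPKM + 1) was 0.66 (standard error 0.12, interval 0.39 to 0.93), with an unadjusted limma p of 0.00038 and an adjusted p of 0.066, just outside the threshold. Against control the mean was 1.52 times as high and the gene was called, with a difference of 0.55 in log2(FPKM + 1) (standard error 0.12, interval 0.28 to 0.82, limma adjusted p = 0.0092). LPS against control gave -0.11 (interval -0.38 to 0.16, limma adjusted p = 0.52). The difference from LPS passed the threshold in 2 of 19 alternative analyses, without control replicate 1 (limma adjusted p = 0.037), which enters only through the shared spread, and without LPS + G-CDs replicate 1 (log2 fold change 0.71, limma adjusted p = 0.043). In the other 17 the adjusted p went up to 0.33, as on TPM and without LPS replicate 3, and removing the length trend gave 0.49 (limma adjusted p = 0.15). The call against control was lost on TPM, at 0.16 (limma adjusted p = 0.49), or 0.53 above the median gene, and when the 6 libraries were fitted alone (limma adjusted p = 0.051).

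**Figure D2:**
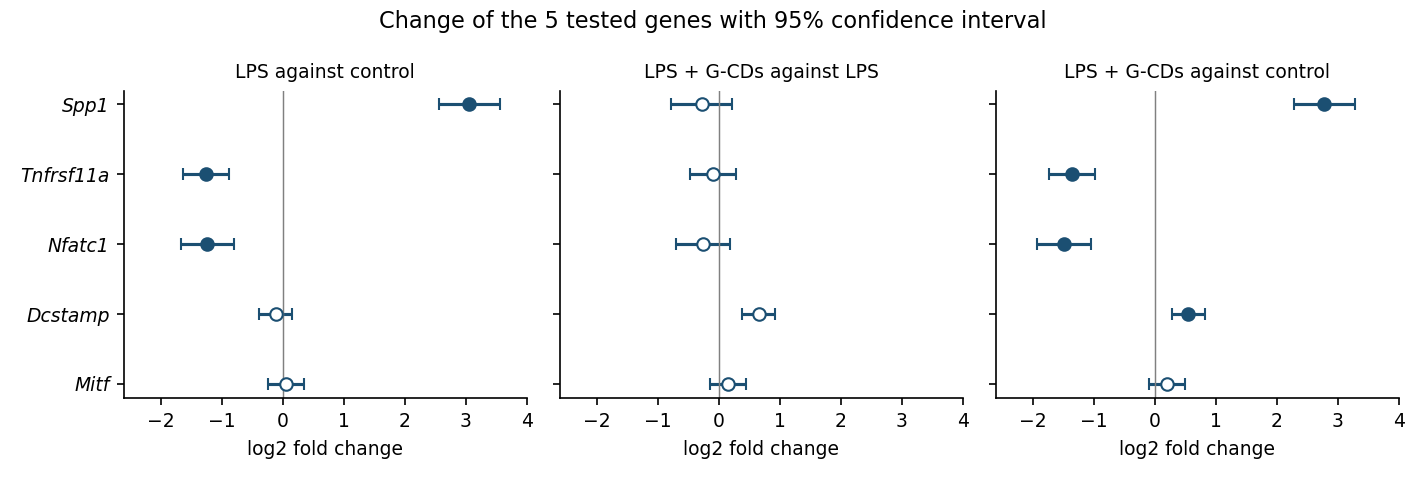
Log2 fold change of log2(FPKM + 1) for the 5 tested genes in the 3 comparisons, with unadjusted 95% confidence intervals from limma (n = 3 per group). Filled circles have an adjusted p under 0.05 and open circles do not. Spp1 lies at 3.06 and 2.78 against control, Tnfrsf11a and Nfatc1 lie between -1.49 and -1.23 against control, and in the middle panel Dcstamp lies at 0.66 with an open circle.

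The second fusion gene, Ocstamp (ENSMUSG00000027670, chromosome 2, 165393760 to 165400405, minus strand), was expressed far below Dcstamp. It had 20, 15 and 7 reads in the control libraries (0.292, 0.241 and 0.107 FPKM), 2, 2 and 6 in the LPS libraries (0.0396, 0.0396 and 0.113 FPKM) and 6, 10 and 6 in the LPS + G-CDs libraries (0.113, 0.165 and 0.117 FPKM). Control libraries overlapped with both other groups. No LPS library reached the libraries with G-CDs, with the highest LPS library at 0.1129 and the lowest LPS + G-CDs library at 0.1135 FPKM (exact two-sided permutation p = 0.1). Each of these libraries had 6 reads, and as a share of reads on genes LPS replicate 3 at 3.85e-05% was above LPS + G-CDs replicate 3 at 3.76e-05%, so the order rests on the deposited scaling.

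Of the resorption genes, Acp5 (ENSMUSG00000001348, chromosome 9, 22126727 to 22135711, minus strand), the enzyme used to stain osteoclasts, had 0.788, 0.550 and 0.996 FPKM in control libraries. It had 0.392, 0.500 and 0.136 FPKM in LPS libraries and 0.273, 0.445 and 1.12 FPKM in LPS + G-CDs libraries, on 4 to 36 reads each. The control libraries lay above the LPS libraries, with an exact two-sided permutation p of 0.1, the smallest that 3 against 3 libraries allow, and LPS + G-CDs replicate 3 was above all the others. On TPM, where Acp5 passed the filter, LPS against control gave -0.91 (limma adjusted p = 0.056), and without a filter it gave -0.41 (limma adjusted p = 0.28). Ctsk (ENSMUSG00000028111, chromosome 3, 95499256 to 95509362, plus strand), the collagen-cutting protease of the osteoclast, had 0.176, 0.233 and 0.223 FPKM in control libraries, on 5 to 6 reads. It had 0.239, 0.862 and 0.227 FPKM in LPS libraries and 0.503, 0.199 and 0.282 FPKM in LPS + G-CDs libraries. LPS replicate 2, with 18 reads, was the highest, and the 3 groups overlapped (exact two-sided permutation p = 0.2 for LPS against control, 0.8 for LPS + G-CDs against LPS and 0.3 for LPS + G-CDs against control).

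In order of level, Spp1 came first in every group by a wide margin. In control cells Nfatc1 at 18.4 ± 3.34 FPKM and Tnfrsf11a at 15.9 ± 3.41 FPKM followed and overlapped with each other, and Dcstamp at 7.59 ± 1.03 and Mitf at 2.75 ± 0.215 FPKM came below them without overlap (SD, n = 3). In LPS cells Nfatc1 at 7.20 ± 0.553 and Dcstamp at 6.92 ± 0.371 FPKM overlapped, and Tnfrsf11a at 5.95 ± 0.0810 FPKM lay below both. With G-CDs, Dcstamp at 11.5 ± 0.770 FPKM moved to the place behind Spp1, above Nfatc1 at 5.99 ± 1.70 and Tnfrsf11a at 5.57 ± 0.961 FPKM, which overlapped. Acp5, Ctsk and Ocstamp were last in each group, with means of at most 0.778 FPKM.

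As a count, 3 of the 5 tested genes were called between LPS and control, where 31.3% of all tested genes were called. Spp1 was the 1 called higher, against 15.8% of all genes (1827), and Tnfrsf11a and Nfatc1 were the 2 called lower, against 15.6% (1803). On TPM the split over all genes was 1117 higher and 3268 lower. Between LPS + G-CDs and control 4 of 5 were called, against 25.3% of all genes. Spp1 and Dcstamp were called higher, against 12.8% (1488), and Tnfrsf11a and Nfatc1 lower, against 12.4% (1439), with 815 higher and 3420 lower over all genes on TPM. Between LPS + G-CDs and LPS, 0 of 5 were called with limma, against 0.492% of all genes (0.250% higher and 0.242% lower). At an unadjusted p under 0.05, 1 of the 5, Dcstamp, passed, against 15.2% of all genes. With voom on the recovered reads the counts were again 3, 4 and 0 of 5 in this order of comparisons, against 32.0%, 26.0% and 0.371% of all genes. The groups did not overlap for 3 of the 5 genes between LPS and control, against 52.5% of all genes, for 4 of 5 between LPS + G-CDs and control, against 34.3%, and for 2 of 5, Spp1 and Dcstamp, between LPS + G-CDs and LPS, against 27.9%. The comparisons share groups and are not independent of each other, and the 5 genes were chosen with results of these data known.

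The list of other osteoclast pathway genes held 84 genes, of which 63 were tested. With LPS 27 rose and 11 fell (22 and 15 of 66 on TPM), where 15.8% of all genes rose and 15.6% fell, and the median log2 fold change was 0.34, against 0.02 over all genes tested. Csf1, Myc, Ifnb1 and Mmp9 passed the filter only through libraries with LPS, and 1 gene only through control libraries, so the filter fixed their directions and the counts are given as a description. None of the 5 tested genes of the set passed in this way. On the log2(FPKM + 1) scale, which ranks abundant genes higher, the largest rises were those of Tnf, Myc, Ifnb1 and Itga5. By the ratio of mean FPKM among the called genes, leaving out Ifnb1 with its 0 control reads, the order was different, with Myc at 445-fold, Csf1 at 53.2-fold, Tnf at 47.1-fold, Mmp9 at 19.2-fold and Itga5 at 8.51-fold. Mmp9 was named in this comparison after its values were seen. Myc, a transcription factor that RANK ligand induces early, went from 0.0773 ± 0.0552 to 34.4 ± 1.46 FPKM (SD, n = 3), a difference of 5.04 in log2(FPKM + 1). Ifnb1, the interferon that restrains osteoclast formation, had 0 reads in the control libraries and 10.7 ± 0.980 FPKM with LPS (SD, n = 3), at least 47.7-fold higher than a floor of 3 reads per control library.

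The largest falls with LPS on that scale were those of Trem2, Tfeb, Itgb5 and Sirpa. Trem2, which signals through the adaptor DAP12 beside RANK, fell from 33.2 ± 5.72 to 5.29 ± 0.381 FPKM (SD, n = 3), a difference of -2.43 in log2(FPKM + 1) (standard error 0.27, limma adjusted p = 0.00017). Tfeb, a relative of MITF that controls lysosomal genes, fell from 4.91 ± 0.754 to 0.342 ± 0.137 FPKM. That is a difference of -2.14 in log2(FPKM + 1) and a ratio of mean FPKM of 0.0698. Sirpa, a receptor for Cd47 that takes part in fusion of macrophages, fell from 34.2 ± 1.73 to 11.0 ± 1.33 FPKM, a difference of -1.56 in log2(FPKM + 1). By role, and against the same 15.8% and 15.6% of all genes, 4 of 8 tested repressors of the lineage rose and 1 fell, 4 of 13 resorption genes rose and 2 fell, 3 of 6 fusion genes rose and 1 fell, 4 of 10 transcription factors rose and 2 fell, 5 of 13 signal transducers rose and 2 fell, and 1 of 3 costimulation genes rose and 1 fell.

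**Figure D3:**
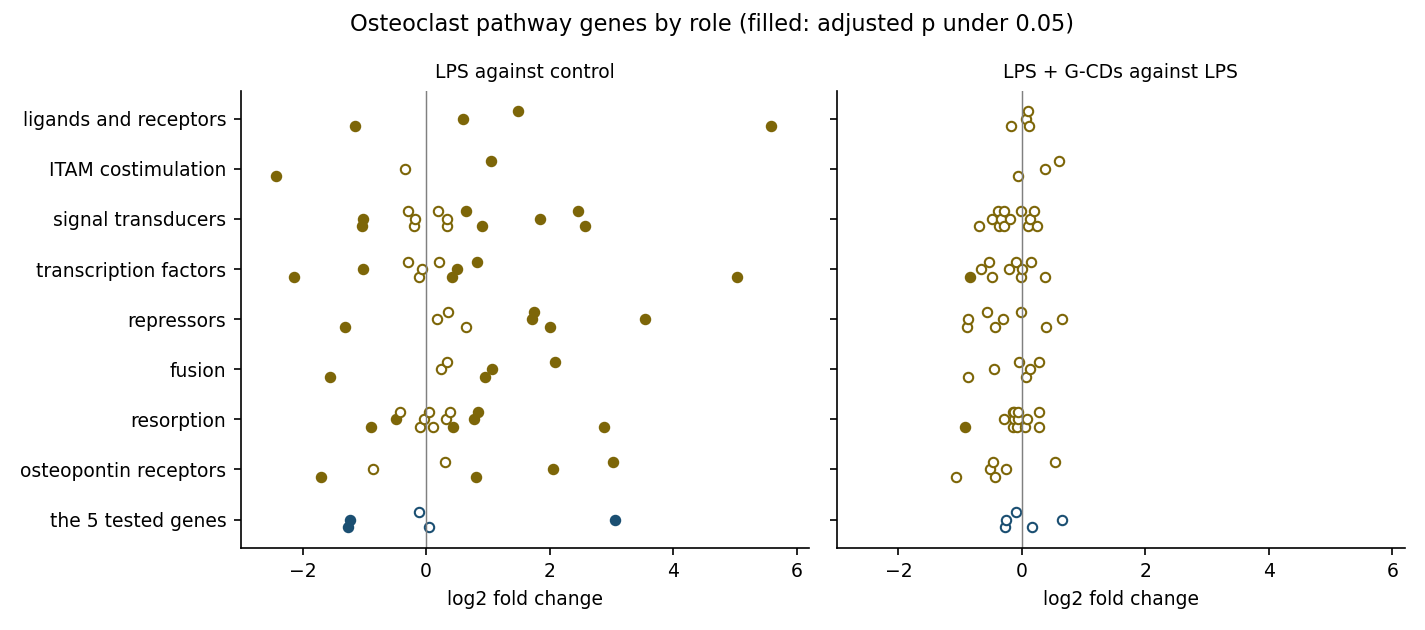
Log2 fold change of log2(FPKM + 1) for the tested pathway genes, 1 circle per gene, grouped by role, and for the 5 tested genes in the bottom row (blue), with LPS against control on the left and LPS + G-CDs against LPS on the right. Filled circles have a limma adjusted p under 0.05. On the left 38 of 63 pathway genes are filled, with Tnf at 5.59 farthest to the right, and on the right 2 are filled, both below 0.

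Between LPS + G-CDs and LPS, 2 of the 63 pathway genes were called, and both fell, where 0.250% of all genes rose and 0.242% fell. At an unadjusted p under 0.05, 18 of the 63 passed by limma, against 15.2% of all genes, and 22 by voom, against 15.3%. Mmp9, a gelatinase that osteoclasts secrete, went from 10.3 ± 0.411 to 5.04 ± 0.638 FPKM (SD, n = 3), a difference of -0.91 in log2(FPKM + 1) (standard error 0.12, limma adjusted p = 0.018). Myc went from 34.4 ± 1.46 to 18.8 ± 2.39 FPKM, a difference of -0.85 in log2(FPKM + 1) (standard error 0.12, limma adjusted p = 0.023). Each kept its call in 11 of 19 alternative analyses and its direction in all of them. The median over the list was -0.12, against 0.02 over all genes tested. Between LPS + G-CDs and control, 23 pathway genes rose and 15 fell, against 12.8% and 12.4% of all genes. On TPM the balance turned, with 15 rising and 21 falling of 66 tested. The largest falls on the log2(FPKM + 1) scale included Itga4 (integrin α4), which went from 106 ± 40.7 to 29.0 ± 18.2 FPKM (SD, n = 3), a difference of -1.93 on that scale (standard error 0.42, limma adjusted p = 0.0097), followed by Trem2, Tfeb and Sirpa with -1.83, -1.76 and -1.60. The largest rises on that scale were again those of Tnf, Myc, Ifnb1 and Itga5. Tnf, Myc and Itga5 rose by 5.65, 4.19 and 2.59 in log2(FPKM + 1), and Ifnb1 was at least 38.9-fold higher than the floor of 3 reads per control library.

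The genes whose pattern over the 9 libraries was most like that of each tested gene were found by Pearson's r of log2(FPKM + 1), as a description. The 9 libraries form 3 treatment groups, which these genes share, and no test was made. For Spp1 they were the chemokine gene Ccl9, Actg1 and Ripk2 (r = 0.999 for each). Ccl9 had mean levels of 25.1, 465 and 397 FPKM in control, LPS and LPS + G-CDs cells. For Tnfrsf11a they were Trim37, Rad54l and Ccdc85c (r = 0.997 for each), for Nfatc1 they were Nfic, Rere and Slco4a1 (r = 0.997, 0.991 and 0.989), and for Mitf they were Slc6a9, Abcd3 and Mdm1 (r = 0.988, 0.940 and 0.915).

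For Dcstamp the nearest genes were Blvrb (biliverdin reductase B), Srxn1 (sulfiredoxin 1) and the kinesin gene Kif3c, with r of 0.955, 0.945 and 0.944 over 9 libraries. Blvrb had mean levels of 14.8, 11.1 and 46.8 FPKM in control, LPS and LPS + G-CDs cells, Srxn1 of 18.4, 15.3 and 75.2 FPKM, and Kif3c of 2.65, 2.82 and 6.41 FPKM. As a ratio to the control or the LPS mean, the level with G-CDs differed less for Dcstamp, at 7.59, 6.92 and 11.5 FPKM in the same order.

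**Figure D4:**
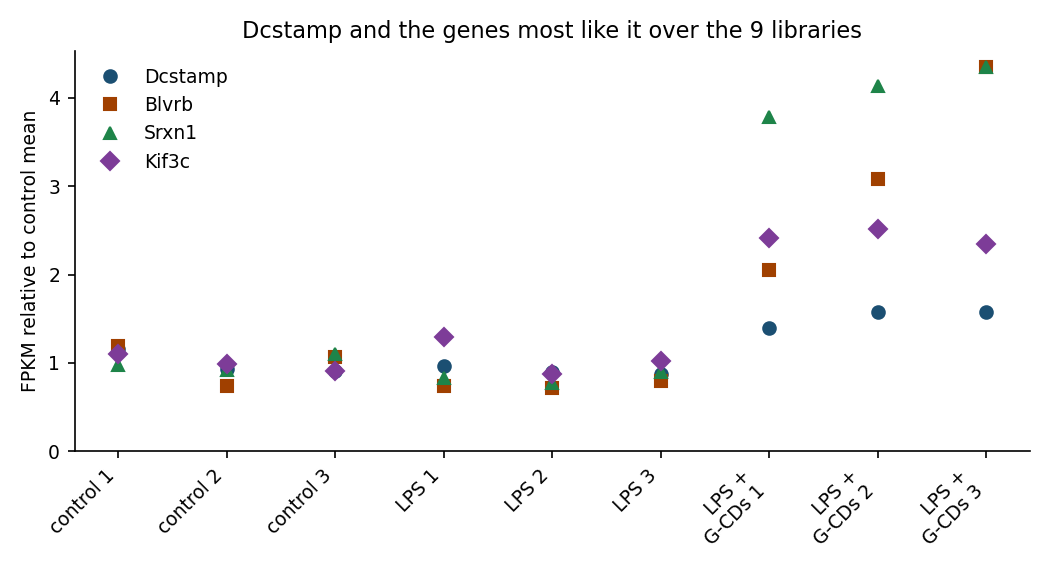
FPKM of Dcstamp and of the 3 genes most like it, divided by each gene's control mean, in each of the 9 libraries (linear axis from 0, 1 point per gene and library). All 4 genes are above their control level in the 3 LPS + G-CDs libraries, with Dcstamp showing the smallest difference. In LPS cells the means of Blvrb (11.1 FPKM), Srxn1 (15.3 FPKM) and Dcstamp (6.92 FPKM) are below their control means of 14.8, 18.4 and 7.59 FPKM. Kif3c has 2.82 FPKM in LPS and 2.65 FPKM in control cells.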

How the data were processed

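RNA-seq of RAW264.7 cells was analysed in 9 libraries, 3 per group (control, LPS, LPS + G-CDs). The authors prepared poly-A libraries, sequenced them on an Illumina instrument and deposited FPKM per gene and library with gene lengths and coordinates. The submitters' processing notes name GRCm38 and mm10, and the aligner and counter are not given in the sources used here. Coordinates matched GENCODE M21 for 53499 of the 54409 genes in both. All 9 value columns were mapped to samples by name (0 belonged to others).

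FPKM multiplied by gene length fell on whole reads, to within 0.05 reads, for 100.0% of values, which gave reads and depth. The library size divided by was 1.11 to 1.14 times the reads on genes in control, 0.929 to 0.936 times in LPS and 0.880 to 0.980 times in LPS + G-CDs libraries, so the deposited values hold a scaling between libraries.

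Genes with at least 1 FPKM in 3 libraries were transformed as log2(FPKM + 1), which understates changes of low genes, and fitted with limma 3.58.1 in R 4.3.3 (1 model, 3 groups, eBayes with trend, two-sided). Tables used Python 3.11.15 and pandas 2.3.3. The fit was tested on simulated data. Alternatives were a pseudocount of 0.1, no filter, a filter at 5 FPKM, TPM, median-of-ratios scaling, the 6 libraries alone, no trend, voom on reads, removal of the gene-length trend, a block for the replicate number, and leaving out each library.

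Same-numbered control and LPS libraries deviated together (correlations 0.103, 0.137 and 0.113), over the limit of 0.1, which pairs them by that limit alone. LPS + G-CDs libraries gave 0.0801 to 0.143 with LPS and 0.0575 to 0.653 with control. Members, pathway lists, motifs and the rule for naming genes (all 8 members, pathway genes by role or by the 4 largest called rises and falls, and the 3 nearest patterns) were chosen with earlier results of these data known. Upstream sequences are from RefSeq (GRCm38.p6), in an extract with windows for Spp1, Acp5, Ctsk, Tnfrsf11a and Mitf. Those of Nfatc1, Dcstamp and Ocstamp were not used here.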

Additional observations from a re-analysis of the deposited data

How the results depend on the processing

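Over 19 alternative analyses (18 for Mitf, which a filter at 5 FPKM removed), the log2 fold changes against control of Spp1, Tnfrsf11a and Nfatc1 kept their direction and their call in every one, both for LPS and for LPS + G-CDs. Leaving out each library gave 3 called genes of 5 throughout for LPS against control, 4 throughout for LPS + G-CDs against control and 0 to 1 for LPS + G-CDs against LPS. The 1 was Dcstamp, without control replicate 1 or without LPS + G-CDs replicate 1. Dcstamp lost its call against control on TPM, where the log2 fold change itself was lower (0.16), and with the 6 libraries alone, where it stayed at 0.55 with a limma adjusted p of 0.051, and the cause was not tested. The sign turned for Mitf on TPM, at -0.18 for LPS and -0.15 for LPS + G-CDs against control, and for Tnfrsf11a between LPS + G-CDs and LPS without LPS + G-CDs replicate 3, at 0.0049 in a range of -0.20 to 0.0049 over the libraries left out. All of these were short of the threshold.

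The 2 pathway genes called between LPS + G-CDs and LPS became 0 with a pseudocount of 0.1, 1 on TPM, 1 with voom on reads, 0 with the 6 libraries alone, and 0 to 4 with a library left out, with 4 without LPS + G-CDs replicate 1. Over all genes the 57 calls of that comparison became 25 with a pseudocount of 0.1, 33 on TPM, 25 with the 6 libraries alone, 92 after removal of the length trend, 256 when LPS + G-CDs replicate 1 was left out and between 11 and 63 when any other library was. The 15.2% of all genes at an unadjusted p under 0.05 there became 37.7% without LPS + G-CDs replicate 1, 7.51% to 17.7% without any other library and 24.1% with the replicate block. The 38 pathway genes called in each comparison against control stayed within 30 to 43. With the replicate block the counts of called genes were 3, 0 and 4 of 5 for LPS against control, LPS + G-CDs against LPS and LPS + G-CDs against control, and the block changed no call of the 5 genes.

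Acp5, Ctsk and Ocstamp rest on 2 to 36 reads per library, and they entered the fit without a filter, and Acp5 also on TPM. None was called there in any comparison (limma adjusted p = 0.056 to 0.81), and at an unadjusted p under 0.05 Ocstamp passed without a filter and Acp5 on TPM, both for LPS against control, where 25.5% and 40.5% of all genes passed in these settings.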
